A study of Mus musculus with 4 samples.

Results

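Car2, Car3, Car4, Car8, Car9, Car12 and Car13 are 7 carbonic anhydrase genes among the 30905 genes counted in mouse prostate cells. They were selected by symbol, and the list was chosen by their measured levels in these same libraries, with the rise of Car12 and Car9 in epithelium under ADT already known. All 7 were in the matrix. The levels below are therefore a description, and the ADT contrast supports nothing by itself. The data are single-cell RNA counts from 4 droplet libraries, 1 for each group of mice. Trp53 was intact or was deleted with a restriction to the prostate (marked PC in the labels), each without and with ADT (taken to mean androgen deprivation therapy, although the labels never expand it). The Trp53-intact mice were 4 months old without ADT and 5.5 months old with ADT, and the Trp53-deleted mice were 3.5 and 5.5 months old. How many mice gave each library is not stated, so the effect of ADT cannot be told apart from that of age or library, and a genotype cannot be told apart from its library.

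Carbonic anhydrases are zinc enzymes that interconvert carbon dioxide and water with bicarbonate and a proton. Cytosolic forms (Car2, Car3, Car13) set the acid and base balance inside a cell, while membrane forms with their catalytic domain facing outwards (Car4, held by a lipid anchor, and Car9 and Car12, which span the membrane) act on the fluid around it. Car8 is a cytosolic relative that has lost the catalytic activity and is known as a partner of the inositol trisphosphate receptor. Car9 is a textbook target of hypoxia signalling, and Car2 is a classical gene of red cells, osteoclasts and acid-secreting or bicarbonate-secreting epithelium.

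The coding bases around the first zinc-binding residue show how the members differ in their active site. They are given 5′ to 3′ from the GENCODE M21 transcripts on GRCm38, with 21 bases each, and the capitals mark the codon at that position.
Car2: cagtttCACtttcactggggc
Car3: caattcCATcttcactggggc
Car13: cagttcCATttgcactggggg
Car4: cagttgCACctgcactggtca
Car9: cagttgCATctacactgggga
Car12: cagctgCACttgcactggggg
Car8: gaagttAGAtttcactgggga
The codon is one for histidine in 6 of the 7 members and AGA, for arginine, in Car8. Over the aligned residues of the translated coding sequences, Car2 was identical to Car13 at 57.4% and to Car3 at 56.9%, and Car3 to Car13 at 60.8%. The membrane forms Car9 and Car12 were identical at 37.7%, and Car2 and Car8 at 43.3%. Car13 (chr3:14641727-14663002), Car3 (chr3:14863512-14872523) and Car2 (chr3:14886273-14900770) lie near each other on the plus strand of chromosome 3. Car8 (chr4:8143362-8239041, minus strand) and Car9 (chr4:43506966-43513729, plus strand) are on chromosome 4, Car4 (chr11:84957786-84966044) is on chromosome 11 and Car12 (chr9:66713686-66766845) on chromosome 9. All are protein-coding. In the annotation Car8 overlaps Gm11799 on its own strand, and Car9 overlaps Gm12454 on the other strand. Whether these overlaps affected their counts was not tested.

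Car9 and Car12 are the members named for epithelium under ADT, and their promoters are shown for that reason. The RefSeq table on GRCm38.p6 matched 3 of the 7 members (Car4, Car9 and Car12) and gives 250 bases before to 50 bases after each start. The Car9 promoter is chr4:43506776-43507075 and the Car12 promoter is chr9:66713436-66713735, both on the plus strand. Capitals mark the hypoxia response core, which is ACGTG on either strand.
Car9: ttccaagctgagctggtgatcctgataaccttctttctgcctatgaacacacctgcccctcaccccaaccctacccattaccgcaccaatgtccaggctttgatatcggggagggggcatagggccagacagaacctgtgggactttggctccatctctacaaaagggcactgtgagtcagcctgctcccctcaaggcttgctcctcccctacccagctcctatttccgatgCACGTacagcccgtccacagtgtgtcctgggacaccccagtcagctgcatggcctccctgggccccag
Car12: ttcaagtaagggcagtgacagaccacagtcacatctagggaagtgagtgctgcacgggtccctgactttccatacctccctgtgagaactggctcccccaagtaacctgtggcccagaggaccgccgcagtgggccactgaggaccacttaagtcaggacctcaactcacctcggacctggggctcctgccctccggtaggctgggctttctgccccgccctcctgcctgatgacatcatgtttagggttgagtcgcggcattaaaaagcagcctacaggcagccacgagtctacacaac
The Car9 window held 1 match, on the minus strand, whose first printed base lies at position -18 from the RefSeq start. The GENCODE start of Car9 given above (43506966) differs from that start and lies before the match. The Car12 window held no match to these letters. The Car4 window, not printed, also held a match on the minus strand, at position 3. Of 32851 mouse promoters of this length, 19.6% held at least 1 match, so such a match is a description of the sequence and not a site of binding. The androgen and glucocorticoid receptor motif TGTTCT, searched on either strand, was in neither printed window and in 19% of all promoters.

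After filtering, 7503 cells of the Trp53-intact library, 7268 of Trp53-intact ADT, 5363 of Trp53-deleted and 8837 of Trp53-deleted ADT were kept, with medians of 4130 to 5678 UMIs (unique molecular identifiers, each counting 1 captured RNA molecule). Between 53 and 77 cell barcodes of each library also occurred in another library, under 0.75% of its barcodes. Wherever 4 values are given together, they keep the order just used. Levels are CPM, which is UMIs of the gene per 1000000 UMIs of all cells of a class in a library. Intervals are exact at the 95% level and cover counting error only. With 1 library per group there is no replicate and no test, so ratios compare libraries and not conditions. Genes are not compared with each other by level.

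Cell classes were named from marker genes, and "-like" marks that no protein or position backs the name. The epithelial-like class (1890, 568, 582 and 183 cells) joins a basal-like, a luminal-like and a luminal progenitor-like cluster. In the luminal progenitor-like cells all 15 of the class's markers in the matrix were found in each library. The luminal-like cluster held 1226 and 200 cells without ADT, but 20 and 5 with ADT, and its cells were shallow (medians of 1034 and 1363 UMIs without ADT). Seminal vesicle markers summed to 72114 CPM in the epithelial-like cells of the Trp53-deleted library and to 2714 CPM or less in the others, so some cells of that gland lie in the luminal-like cluster. In luminal progenitor-like cells they summed to 6.24 to 234.7 CPM, and values for these cells are given beside those for all epithelial-like cells.

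**Figure D1:**
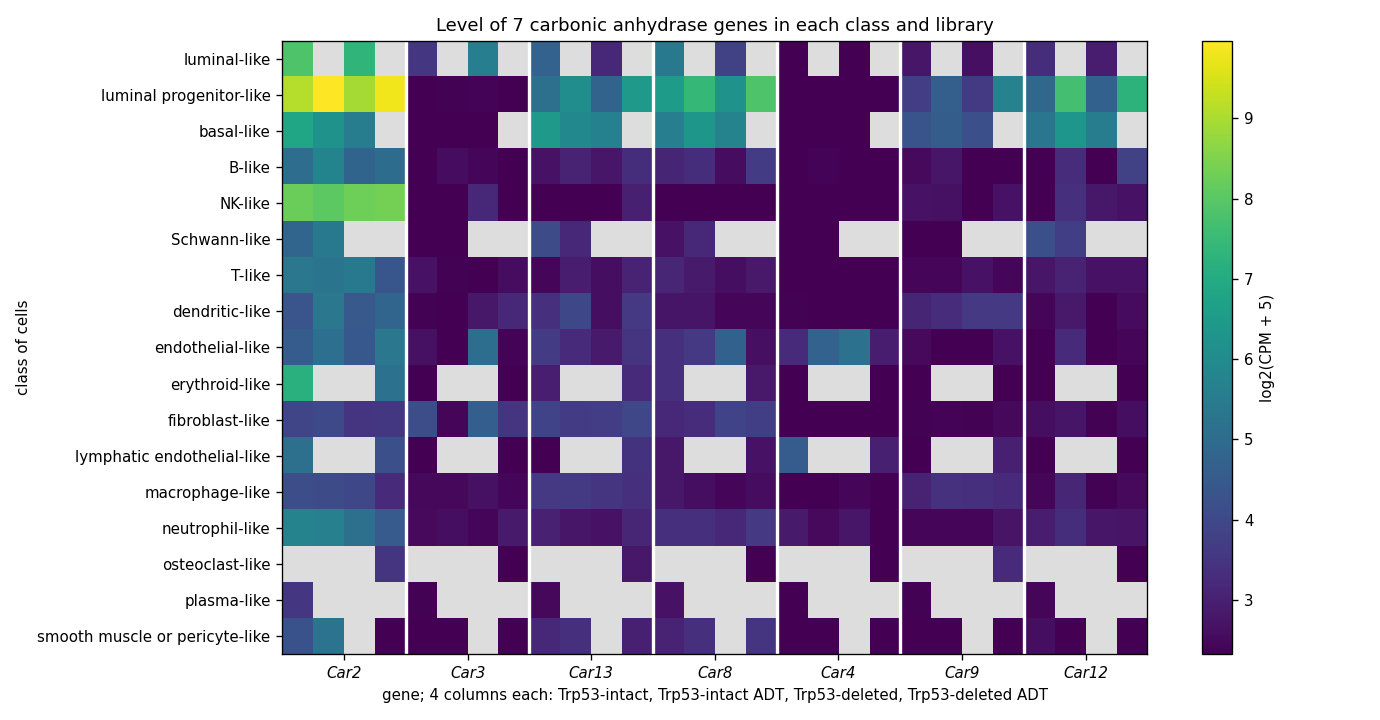
Colour gives log2(CPM + 5) of each gene (groups of 4 columns, 1 per library) in each class of cells (rows), and grey marks fewer than 50 cells. Car12, Car8 and Car13 stand out in the luminal progenitor-like and basal-like rows, Car2 also in the NK-like row, and Car4 in the endothelial-like and lymphatic endothelial-like rows.

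The members fell into 4 patterns of place. Car12, Car8 and Car2 were mostly epithelial: 89.4% of all 4661 Car12 UMIs, 82.3% of 7599 Car8 UMIs and 79.2% of 43713 Car2 UMIs came from epithelial-like cells. Car9 (57.2% of 1487 UMIs) and Car13 (37.5% of 6964 UMIs) were shared with cells outside that class. These included unnamed clusters whose best score, a low one, was for luminal progenitor genes. Cluster 28 held 77 Car9 UMIs in Trp53-intact and 53 in Trp53-deleted ADT. Cluster 26 held 30 in Trp53-intact ADT and 50 in Trp53-deleted ADT. Car4 (133 UMIs in all) was endothelial, with no UMI in the 4 libraries' epithelial-like cells, where 3 counts would be 0.109 to 0.62 CPM. Car3 (693 UMIs in all) was in few cells anywhere.

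Car12, the transmembrane form of many secretory epithelia, had the largest ratio of ADT over no ADT among the members that were higher with ADT, although in Trp53-deleted mice its interval overlapped that of Car9. In luminal progenitor-like cells it stood at 24.8 CPM (95% interval 22.7 to 27) in the Trp53-intact library and 201.4 (193.1 to 210) in Trp53-intact ADT. It stood at 21 CPM (18.6 to 23.7) in the Trp53-deleted library and 150.2 (139.1 to 162) in Trp53-deleted ADT. Both ADT libraries lay far above both others, and the intervals of the ADT libraries did not overlap each other. The ADT library was 8.12-fold higher in Trp53-intact mice (7.37 to 8.95) and 7.14-fold higher in Trp53-deleted mice (6.19 to 8.24). Over all epithelial-like cells the values were 23.8, 171.3, 20.6 and 144.3 CPM, with ratios of 7.21 (6.61 to 7.87) and 7.01 (6.16 to 8). On the log2(CPM + 5) scale these are differences of 2.62 and 2.55. When the libraries were clustered separately the Trp53-intact difference was 1.56, and the epithelial-like cells of its ADT library were then 712 with a median of 1059 UMIs. The cause of that shift was not tested.

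Basal-like cells showed a smaller difference in Car12, from a higher start. Their levels were 35.2, 76.2, 42.7 and 78.6 CPM in 142, 122, 89 and 24 cells. The ADT ratio was 2.17 (1.74 to 2.71) in Trp53-intact mice and 1.84 (1.11 to 2.96) in Trp53-deleted mice, and whether it differs from that of luminal progenitor-like cells was not tested across mice. In luminal-like cells Car12 was at 4.97 CPM in the Trp53-intact library and 2.53 CPM in Trp53-deleted. T-like cells, taken as the reference for free RNA, held 1.92, 3.33, 1.54 and 1.5 CPM.

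Car9, the hypoxia-linked transmembrane form, was higher in both ADT libraries too, with the larger ratio in Trp53-deleted mice. In luminal progenitor-like cells the 4 libraries held 7.98 CPM (6.82 to 9.29), 20.1 (17.5 to 22.9), 7.37 (5.97 to 9) and 47.2 (41.1 to 54). The 2 libraries without ADT overlapped in their intervals, and Trp53-deleted ADT lay highest. In that library 40 of the 212 Car9 UMIs lay in 1 cell. The ADT ratio was 2.52 (2.05 to 3.1) in Trp53-intact mice and 6.41 (5.01 to 8.24) in Trp53-deleted mice. Over all epithelial-like cells it was 2.44 (2.04 to 2.92) and 6.5 (5.19 to 8.18), or 0.92 and 2.08 on the log2(CPM + 5) scale. In basal-like cells Car9 stood at 14.8, 18.7, 13.2 and 36 CPM, the last from 11 UMIs, and the Trp53-intact ratio of 1.26 had an interval that included 1 (0.86 to 1.87). Macrophage-like cells held 3.45, 5.62, 5.26 and 4.58 CPM of Car9 and dendritic-like cells 3.69, 4.79, 6.96 and 6.93 CPM, against 0.416 to 1.54 CPM in T-like cells.

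**Figure D2:**
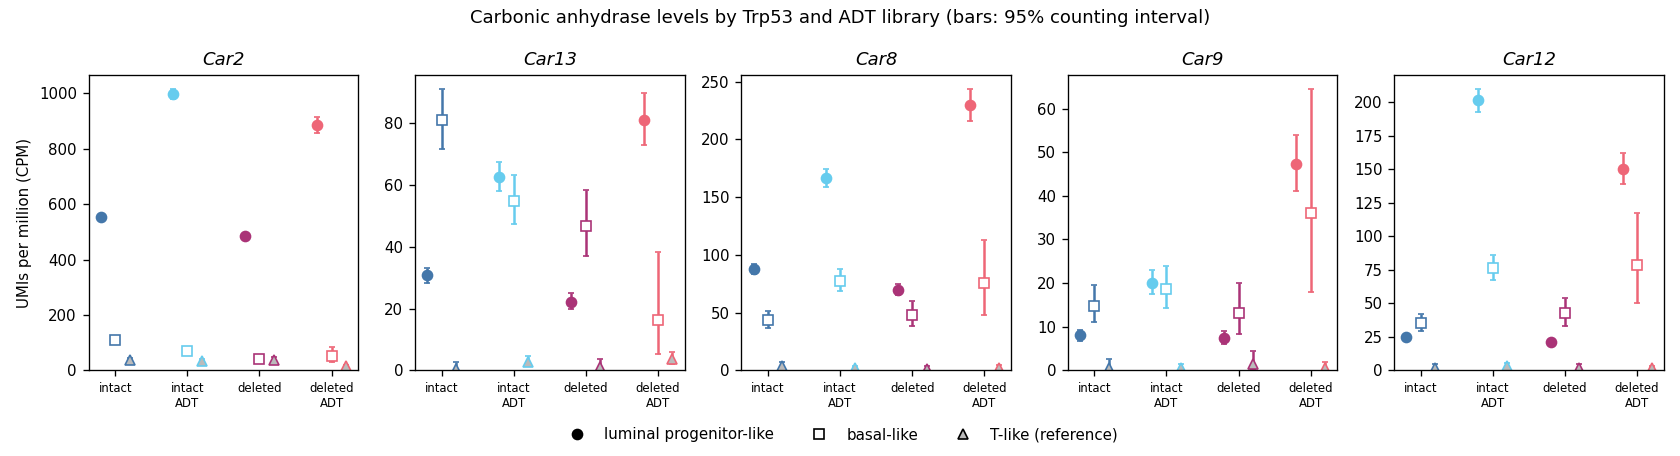
Points give CPM (vertical axis, from 0) of 5 members in luminal progenitor-like (circles), basal-like (open squares) and T-like cells (triangles) of the 4 libraries, and bars are 95% counting intervals. In luminal progenitor-like cells both ADT libraries lie above both libraries without ADT for each of the 5 genes, for example 201.4 and 150.2 against 24.8 and 21 CPM for Car12.

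The cytosolic form Car2 was higher with ADT in luminal progenitor-like cells, by a smaller ratio than Car12. Its levels there were 554.1 CPM (544.1 to 564.3), 997.9 (979.2 to 1017), 485.4 (473.6 to 497.6) and 885.5 (858.2 to 913.5). Both ADT libraries lay above both others. The ADT ratio was 1.8 (1.75 to 1.85) in Trp53-intact mice and 1.82 (1.75 to 1.9) in Trp53-deleted mice. Over epithelial-like cells the direction in Trp53-intact mice turned (log2 ratio -0.84 against 0.74) when the libraries were clustered separately. Basal-like cells went the other way in Trp53-intact mice: 110.9 CPM without and 69.8 CPM with ADT, a ratio of 0.63 (0.533 to 0.742). In Trp53-deleted mice they held 41.5 and 52.4 CPM, the second from 16 UMIs, with a ratio of 1.26 (0.685 to 2.2).

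Car8, the inactive relative, stood at 87.5 CPM (83.6 to 91.7), 166.3 (158.7 to 174.1), 69.7 (65.2 to 74.3) and 229.3 (215.5 to 243.7) in luminal progenitor-like cells. Trp53-deleted ADT was highest and Trp53-deleted lowest, with no overlap among the 4 intervals. The ADT ratio was 1.9 (1.78 to 2.03) in Trp53-intact mice and 3.29 (3.01 to 3.6) in Trp53-deleted mice. Basal-like cells held 43.8, 77.7, 48.1 and 75.4 CPM of Car8, with ratios of 1.77 (1.45 to 2.19) and 1.57 (0.941 to 2.52).

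Car13, a cytosolic form of broad distribution, stood at 30.7 CPM (28.4 to 33.2), 62.8 (58.1 to 67.6), 22.3 (19.8 to 25) and 81.1 (73 to 89.9) in luminal progenitor-like cells. The ADT ratio was 2.04 (1.83 to 2.28) and 3.64 (3.11 to 4.26). In basal-like cells both ADT libraries were lower: 81 CPM without and 54.9 with ADT in Trp53-intact mice, and 46.9 and 16.4, the last from 5 UMIs, in Trp53-deleted mice. The ratios there were 0.678 (0.56 to 0.819) and 0.35 (0.11 to 0.851). Car13 was thus higher with ADT in luminal progenitor-like cells and lower in basal-like cells of the same libraries, and the difference between the classes was not tested.

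Read against all genes, 5 of the 6 members with at least 20 UMIs over both libraries were at least 1.5-fold higher with ADT in epithelial-like cells of Trp53-intact mice, where 15.1% of the 14214 genes measured were. The sixth, Car3, was among the 13.9% that were at least 1.5-fold lower. In Trp53-deleted mice the same 5 of 6 were higher, against 13.2% of 13114 genes, and Car3 was lower, against 13.9%. Car4 did not reach 20 UMIs in either comparison. When the libraries were clustered separately, the Trp53-intact log2 ratio of Car8 was 0.48 against 0.89 and that of Car13 0.46 against 0.69. The members' median log2 ratio was 0.81 and 1.69, beside 0.05 and -0.01 for all genes measured. The 7 were picked with this contrast known, so nothing is read from these shares.

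Between genotypes Car3 differed most: without ADT it was 7.77-fold higher (4.88 to 12.9) in the Trp53-deleted library, from 106 against 22 UMIs that lay mostly in a few cells. Without ADT, Trp53-deleted over Trp53-intact epithelial-like cells gave 0.859 for Car2, 0.775 for Car8, 0.875 for Car9 (0.696 to 1.1), 0.866 for Car12 and 0.618 for Car13 (0.547 to 0.696). Of 6 members measured, Car13 was at least 1.5-fold lower, as were 11.1% of all genes, and Car3 at least 1.5-fold higher, as were 9.49%. With ADT, Car9 was 2.34-fold higher (1.95 to 2.79) and Car8 1.5-fold higher (1.39 to 1.62) in the Trp53-deleted library, and the other 3 measured members lay between 0.842 and 1.25. That is 2 of 5 members higher, against 9.38% of genes, and none lower, against 11.4%. Of the 223 Car9 UMIs of Trp53-deleted ADT, 40 lay in 1 cell. In luminal progenitor-like cells alone the Car8 ratio was 1.38 (1.28 to 1.49), below 1.5. Car2 with ADT had a ratio of 1.06 over the whole epithelial-like class but 0.887 in its luminal progenitor-like cluster, and a log2 ratio of 1.57 when the libraries were clustered separately, so its size and direction rest on the cells counted. These comparisons share libraries with the ADT comparisons and are not independent of them.

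Depth differed between the libraries' luminal progenitor-like cells, whose medians were 30571, 11295, 37547 and 19722 UMIs, so levels were set side by side within ranges of depth. In cells with at least 30000 UMIs (267, 122, 184 and 47 cells), Car12 stood at 23.5, 160.1, 19.7 and 135 CPM. In cells with 10000 to under 30000 UMIs (129, 96, 72 and 64 cells), it stood at 32.5, 275.9, 29.7 and 170.4 CPM. In cells with 3000 to under 10000 UMIs, it stood at 16.4, 378.7, 24.8 and 215.3 CPM, from 8, 282, 4 and 29 UMIs. Both ADT libraries were above both others in each range, and within the ADT libraries shallower luminal progenitor-like cells had the higher Car12 levels. A finer clustering also split this class by depth. The deeper finer cluster (405, 253, 267 and 125 cells) held Car12 at 25.4, 187.1, 21.8 and 146.8 CPM. The shallower finer cluster (94, 172, 14 and 29 cells, medians of 2858 to 4105 UMIs) held 33.7, 390.3, 0 and 316.6 CPM. Whether the Car12 levels follow depth or finer cluster was not tested. Below 3000 UMIs Trp53-intact ADT reached 625.3 CPM (66 cells) and Trp53-intact 110.2 CPM (39 cells, 8 UMIs).

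Car9 was higher in both ADT libraries in the 2 deeper ranges as well, at 7.41, 18.4, 6.57 and 58.2 CPM in the deepest cells and 12.1, 25.1, 11.4 and 22.2 CPM in the next. In the latter range Trp53-deleted ADT (14.8 to 32.1) did not stand above Trp53-intact ADT (18.6 to 33.2). Car2 in the deepest cells was at 575.6, 1082, 466.2 and 859.4 CPM, Car8 at 89.3, 159, 64.5 and 208 CPM, and Car13 at 30.1, 69.9, 21.6 and 86.3 CPM, each higher in both ADT libraries. In cells with 3000 to under 10000 UMIs Car13 stood at 34.9, 30.9, 31 and 44.6 CPM, from 17, 23, 5 and 6 UMIs. In Trp53-intact mice it was thus not higher with ADT there. In the shallower finer cluster Car13 stood at 31.6 CPM without and 31 CPM with ADT in Trp53-intact mice, from 15 and 24 UMIs. Below 3000 UMIs it stood at 41.3 CPM in Trp53-intact and 36.8 in Trp53-intact ADT, from 3 and 5 UMIs.

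**Figure D3:**
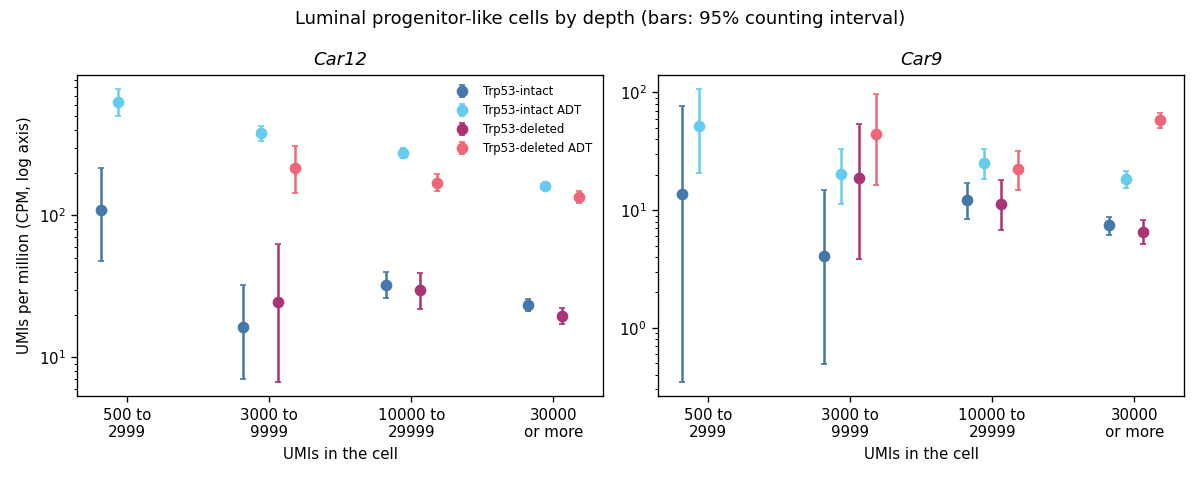
CPM (log axis) of Car12 and Car9 in luminal progenitor-like cells is plotted for 4 ranges of UMIs per cell, with 95% counting intervals, leaving out points from fewer than 20 cells or with no UMI. In each range of depth the Car12 points of the ADT libraries lie above those of the libraries without ADT, for example 160.1 and 135 against 23.5 and 19.7 CPM in the deepest cells.

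The share of cells with a UMI of Car12 or Car9 was also higher with ADT. In luminal progenitor-like cells 22.8%, 74.2%, 30% and 72.1% held at least 1 Car12 UMI, beside 0.922%, 1.64%, 0.547% and 0.563% of T-like cells, whose median depths were 4612, 5940, 3494 and 4335 UMIs. After each cell was thinned to 1000 UMIs the Car12 shares were 3.67%, 25.4%, 3.08% and 15%. In T-like cells thinned alike they were 0 of 427 cells, 0 of 792, 0.203% and 0.227%, and a count of 0 allows up to 0.703% and 0.379%. Of the luminal progenitor-like cells 4, 5, 1 and 1 were too shallow for this. For Car9 the unthinned shares were 14.6%, 22.1%, 15.4% and 33.8%.

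Cells with at least 10000 UMIs, each thinned to 10000, gave a closer view (396, 218, 256 and 111 luminal progenitor-like cells, leaving out 126, 208, 37 and 43). A Car12 UMI was found in 12.6% (9.52 to 16.3), 64.7% (57.9 to 71), 12.1% (8.38 to 16.8) and 58.6% (48.8 to 67.8) of them. A Car9 UMI was found in 6.31%, 15.1%, 5.08% and 23.4%, and UMIs of both in 1.01%, 11%, 0.781% and 18%. Car2 was found in 86.4%, 94.5%, 78.5% and 90.1%, Car8 in 50.5%, 67.9%, 35.2% and 78.4%, and Car13 in 24.5%, 45.4%, 16% and 44.1%. A cell held UMIs of 1.8, 2.88, 1.47 and 2.95 of the 7 genes on average. So at this depth more cells of the ADT libraries carried each of these 5 genes. With luminal progenitor-like cells thinned to 1000 UMIs instead, Car13 was found in 3.861% of Trp53-intact and 3.563% of Trp53-intact ADT cells. In Trp53-deleted mice it was found in 1.027% without and 4.575% with ADT. The Car13 share was thus not higher with ADT in Trp53-intact mice at that lower depth.

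**Figure D4:**
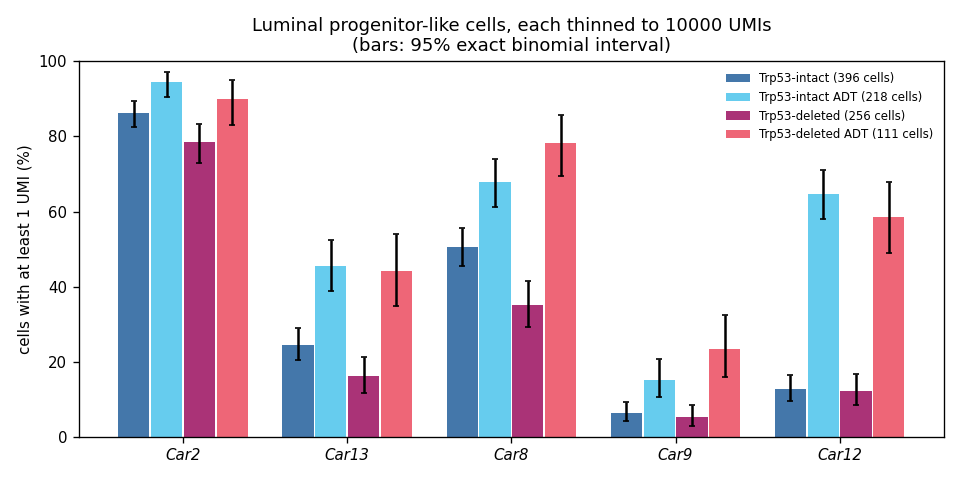
Bars give the percent of luminal progenitor-like cells with at least 1 UMI of each gene after thinning to 10000 UMIs, with exact 95% binomial intervals. Car12 shows the widest gap, 64.7% and 58.6% with ADT against 12.6% and 12.1% without.

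RNA of other cells also differed within these clusters. T-cell markers (12 genes) summed to 5.74, 73.1, 9.83 and 53.5 CPM in luminal progenitor-like cells, with 11, 12, 11 and 9 of them found, and neutrophil markers (10 genes) to 32.7, 57.9, 22.3 and 92 CPM, with 10, 10, 9 and 9 found. Macrophage markers (12 genes, all found) summed to 447.7, 203, 202 and 465 CPM, and fibroblast markers (10 genes, all found) to 342.9, 255.7, 424.5 and 433.2 CPM, both lower with ADT in Trp53-intact mice. In T-like cells themselves Car12 was at 1.5 to 3.33 CPM and in neutrophil-like cells at 1.56 to 4.95 CPM. After the T-like level was subtracted, the Car12 difference over epithelial-like cells was 2.69 in Trp53-intact and 2.62 in Trp53-deleted mice on the log2(CPM + 5) scale, and after the neutrophil-like level was subtracted it was 2.72 and 2.64. The part of macrophage and fibroblast RNA was not tested.

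Outside epithelium, Car2 marked natural killer cells. NK-like cells held 302.4, 259.4, 304.1 and 329.1 CPM in 93, 94, 96 and 104 cells, and 63.4%, 58.5%, 57.3% and 65.4% of them had a UMI, beside 5.52% to 14.5% of T-like cells. The ADT ratios, 0.858 (0.701 to 1.05) and 1.08 (0.876 to 1.34), had intervals that included 1. Erythroid-like cells held 140.4 CPM in the Trp53-intact library (55 cells), with 31 of 51 UMIs in 1 cell, and 31.1 CPM in Trp53-deleted ADT (74 cells). Osteoclast-like cells, found in Trp53-deleted ADT alone with 50 or more cells (57 cells), held 6.02 CPM (2.75 to 11.4) from 9 UMIs, below the 15.8 CPM of the T-like cells there.

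Car13 was also carried by an unnamed cluster of the Trp53-deleted ADT library led by Ptn, Crabp1 and Postn (cluster 16, 655 cells, median 80985 UMIs). It held 47.6 CPM from 2802 UMIs, which is 40.2% of all Car13 UMIs, and 78.8% of its cells had one. Cluster 5, shallow cells of the same library (1647 cells, median 1138 UMIs), held 38 CPM. Fibroblast-like cells held 9.47, 7.81, 8.06 and 10.3 CPM of Car13.

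Car4, the lipid-anchored form of capillary surfaces, was found in endothelial-like cells at 4.64 CPM (1.87 to 9.57), 21.4 (13.7 to 31.8), 31.5 (20.8 to 45.9) and 2.45 (1.17 to 4.5), from 7, 24, 27 and 10 UMIs in 6, 10, 12 and 5 cells. Trp53-intact ADT and Trp53-deleted were high and the other two low. The ADT ratio was therefore 4.6 (1.93 to 12.7) in Trp53-intact mice and 0.0776 (0.0335 to 0.166) in Trp53-deleted mice. Of endothelial-like cells, 4.05%, 5.81%, 10.4% and 1.24% held a Car4 UMI, and the Trp53-intact shares overlapped in their intervals. A list of 10 capillary genes summed to 10342, 7513, 12884 and 4416 CPM in these cells, with all 10 found in each library. This sum was lowest where Car4 was lowest, but in Trp53-intact mice it was lower with ADT while Car4 was higher. Its part in the difference was not tested. In lymphatic endothelial-like cells (62, 37, 34 and 55 cells) Car4 stood at 18.3, 187.9, 0 and 2.94 CPM, where 3 counts in the Trp53-deleted library would be 30 CPM. The 31 UMIs of Trp53-intact ADT lay in 6 cells, 17 of them in 1 cell.

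Car3, a cytosolic form abundant in fat and skeletal muscle, came mostly from a few cells. In epithelial-like cells it had 22, 2, 106 and 0 UMIs, or 0.8, 0.139 and 6.21 CPM and, in Trp53-deleted ADT, less than the 0.62 CPM that 3 counts would give. The 23 cells with at least 5 Car3 UMIs held 77.1% of its UMIs. In them 10 adipocyte genes summed to 6044 CPM, all 10 found, beside 155.9 CPM in the other 28948 cells. Fibroblast-like cells held 12.5, 0.399, 19.4 and 6.04 CPM. Of the 236 UMIs in fibroblast-like cells of the Trp53-deleted library, 225 came from 5 cells, in which adipocyte genes summed to 5510 CPM beside 421.8 CPM in the other 1571. In Trp53-deleted ADT 39 of 42 came from 2 cells, with adipocyte genes at 92.1 CPM beside 173.7 CPM in the other 780. In luminal-like cells of the Trp53-deleted library 102 of 103 Car3 UMIs came from 3 cells, in which adipocyte genes summed to 94894 CPM beside 30.4 CPM in the other 197. The Car3 differences between libraries given above thus rest on a few cells. Adipocyte RNA was summed over such cells, so how many of them carried it is not known, and whether these are doublets was not tested.

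Unnamed clusters held some members too. Cluster 4, shallow cells (1331 of them in Trp53-intact ADT, median 805 UMIs) whose best score was for luminal progenitor genes, held Car2 at 181.7, 655.2, 745.9 and 830.6 CPM, and Car8 at 39.5, 117.4, 65.4 and 263.2 CPM. Its Car12 stood at 23.7 CPM (4.89 to 69.3, from 3 UMIs) in Trp53-intact and 46.3 (36 to 58.6) in Trp53-intact ADT, with overlapping intervals. Trp53-deleted ADT held 77.2 CPM (53.4 to 107.8) of Car12. Trp53-deleted held no Car12 UMI in 30 cells, with an upper limit of 48.3 CPM. Cluster 28, led by intestinal genes (55 cells in Trp53-intact, 63 in Trp53-deleted ADT), held Car2 at 1029 and 689.4 CPM and Car9 at 51.1 and 75.3 CPM, but Car12 at 1.99 and 8.53 CPM. Cluster 26, led by Spink8 and Folr1 and found in the ADT libraries (49 and 126 cells), held Car2 at 538.1 and 181.1 CPM and Car13 at 51.6 and 55.1 CPM, with Car12 at 1.83 and 4.52 CPM. Both clusters thus held Car2, while their Car12 lay below that of luminal progenitor-like cells of the same libraries.

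The genes most like each member were ranked by Pearson's r of log2(CPM + 5) over 52 pairs of class and library, which share libraries and depth, among 13983 genes. For Car12 these were Prss22 (r = 0.94), Ccdc129 (0.93), Pax9 (0.92), Cxcl15 (0.91) and Bbox1 (0.91). For Car9 they were Prss22 (0.86), Calcb (0.85), Scnn1g (0.83), Slc25a13 (0.83) and Ccdc129 (0.82), and for Car13 they included Prss22 (0.88), Padi1 (0.87), Calcb (0.87) and Krt17 (0.87). Car8 was nearest to Eppk1 (0.93), S100a14 (0.93), Tmem184a (0.93), Tmem125 (0.92) and Foxq1 (0.92), and Car2 to Bspry (0.90), Igsf5 (0.88), Samd10 (0.87), Rab27b (0.84) and Marveld2 (0.82). For Car3 the nearest was Cfd (0.83), an adipocyte gene, followed by Svs6, Svs3b, Ceacam10 and Svs3a (0.64 to 0.65). Among members, Car12 was closest to Car8 (0.86) and Car13 (0.84), and Car3 had an r of at most 0.06 with any other member. Car4 had too few UMIs to rank.

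Other genes of acid and bicarbonate handling did not move as one in epithelial-like cells. Of 23 such transporters measured in Trp53-intact mice, 8 passed 1.5-fold upwards under ADT and 6 downwards, and of 22 in Trp53-deleted mice 5 passed upwards and 6 downwards, with median log2 ratios of 0.08 and 0.13. Of all genes measured, 15.1% were higher and 13.9% lower in Trp53-intact mice, and 13.2% and 13.9% in Trp53-deleted mice. Slc4a4, a sodium bicarbonate cotransporter, stood at 37.9 CPM with and 13.6 without ADT in Trp53-intact mice, and Slc16a7, a monocarboxylate transporter, at 21.4 and 57.4 CPM, but in Trp53-deleted mice Slc16a7 stood at 35.1 with and 26.8 CPM without ADT. Aqp5, a water channel, was higher with ADT in both genotypes, at 50.1 against 21.4 CPM in Trp53-intact and 43.4 against 21.7 CPM in Trp53-deleted mice. Of 19 and 18 subunits and partners of the vacuolar proton pump, 1 and 1 were higher and 4 and 4 lower, where 13.9% of all genes were lower in either genotype. Among the lower ones Atp6ap2 was at 74 with and 191.7 CPM without ADT in Trp53-intact mice, and at 102.5 and 176.9 CPM in Trp53-deleted mice.

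Hypoxia response genes, the targets to which Car9 belongs, were more often higher with ADT in Trp53-deleted mice, a difference that was not tested. Of 40 measured in both genotypes, Trp53-intact mice had 5 at least 1.5-fold higher and 5 lower (median log2 ratio -0.03), near the 15.1% and 13.9% of all genes. Trp53-deleted mice had 12 higher and 1 lower (median 0.32), beside 13.2% and 13.9% of all genes. Ndrg1 was at 83.6 against 43.4 CPM and at 131.9 against 30 CPM, and Ankrd37 at 22.4 against 8.58 and at 45.7 against 11.7 CPM. Adm, which encodes adrenomedullin, was at 9.73 with and 18.6 CPM without ADT in Trp53-intact mice but at 33.9 and 7.44 CPM in Trp53-deleted mice. Of 16 and 17 oestrogen response genes, a list kept because CA12 is a known oestrogen target, 5 and 7 were higher and 1 and 1 lower, beside 15.1% and 13.2% of all genes higher and 13.9% lower. Esr1, the oestrogen receptor, was at 79.8 with and 24.2 CPM without ADT in Trp53-intact mice, and at 57.7 and 16.5 CPM in Trp53-deleted mice. Genes of proton-secreting cells (9 genes) summed to only 3.41 to 11 CPM in epithelial-like cells, and Rhcg had no UMI in any of the 4 libraries there.

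**Figure D5:**
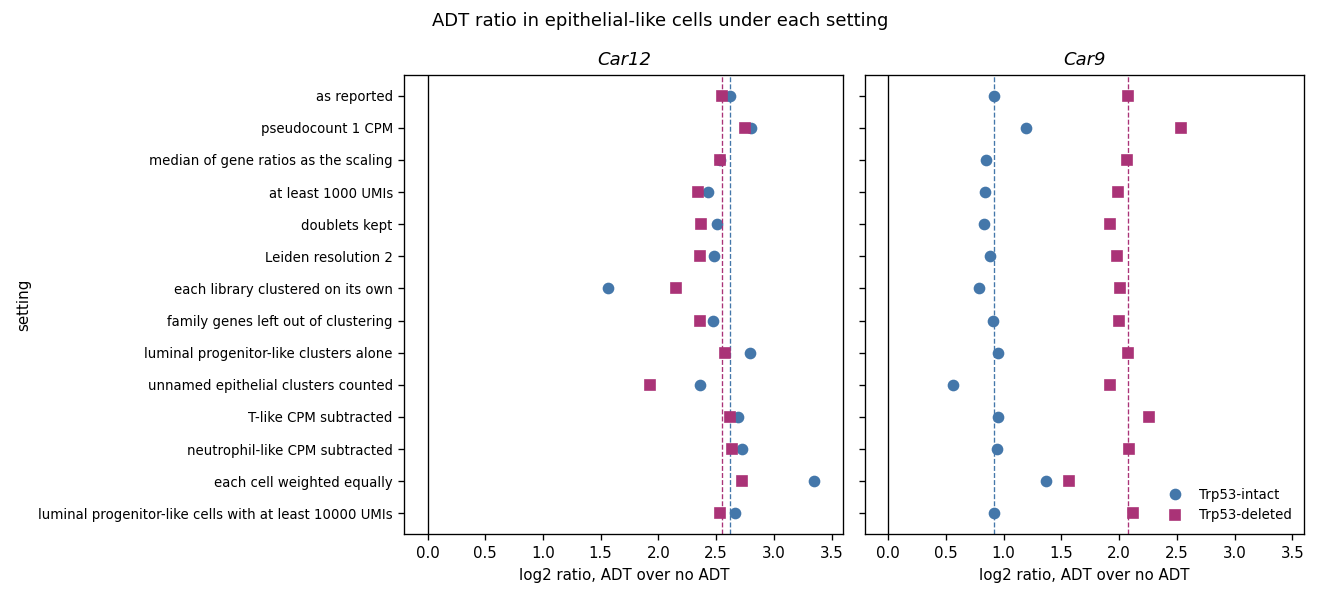
Each row is a setting and each point the log2 ratio of ADT over no ADT in epithelial-like cells, in Trp53-intact (circles) and Trp53-deleted mice (squares), with dashed lines at the reported values of 2.62 and 2.55 for Car12 and 0.92 and 2.08 for Car9. All points lie above 0, and the lowest is 1.56 for Car12 and 0.56 for Car9.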

How the data were processed

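The authors' deposited matrix holds raw UMI counts per gene and cell barcode for 4 libraries of mouse prostate, 1 per group, made with Cell Ranger 2.1.1 on mm10 per the submitters' processing notes, while the file header gives 3.1.0. Part of the genotype that all groups share, and 1 of the genes most like a member, are not reported here. The libraries held 58088678 to 148030357 UMIs. Cells with at least 500 UMIs, 200 genes and at most 20% mitochondrial UMIs were kept. Scrublet in scanpy 1.11.5 marked 0 to 2 barcodes per library by itself, so the highest-scoring ones (a share of 0.008 for each 1000 barcodes) were left out, 331 to 789 cells. Counts were log-scaled, and 2000 variable genes, 40 components and 20 neighbours gave 36 Leiden clusters at resolution 1, of which 10 stayed unnamed. Naming thresholds were set after clusters were seen. Variable genes included 6 family genes. UMIs were summed per class and library, with a pseudocount of 5 CPM in log2 ratios. Intervals are exact Poisson, conditional binomial and Clopper-Pearson at 95%. No test across mice was possible. The ratios were tested on simulated counts. Gene positions came from GENCODE M21 (30766 of 30905 identifiers matched). The members and lists were chosen with earlier results of these data known. Named were the members everywhere, other family genes with at least 20 UMIs in a class of a library, up to 3 genes each way per list, and the 5 genes most like each member. Results were recomputed under 12 other settings, and under 1 more chosen after seeing the data.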

Additional observations from a re-analysis of the deposited data

Results flagged for a closer look

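By summed UMIs, Car4 in endothelial-like cells went opposite ways with ADT in the 2 genotypes, with counting intervals clear of no change in both: the log2 ratio was 1.45 in Trp53-intact mice and -2.29 in Trp53-deleted mice. Each rests on 2 libraries and on 31 and 37 UMIs, and the difference between genotypes was not tested. The intervals take UMIs as independent, but up to 6 lay in 1 cell. By share of cells with a Car4 UMI the Trp53-intact libraries overlapped, at 4.05% (1.5 to 8.62) without and 5.81% (2.82 to 10.4) with ADT. The Trp53-deleted shares, 10.4% (5.51 to 17.5) and 1.24% (0.405 to 2.88), did not overlap.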

How the results depend on the processing

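All 13 alternatives kept both Car12 and both Car9 ADT ratios above 0, from 1.56 to 3.35 and 1.93 to 2.75 (Car12, Trp53-intact and Trp53-deleted) and from 0.56 to 1.37 and 1.57 to 2.54 (Car9). As reported they are 2.62, 2.55, 0.92 and 2.08. In the next sentences the values outside the counting interval are given, Trp53-intact before Trp53-deleted. For Car12 they are 2.80 and 2.75 with a pseudocount of 1 CPM, 2.43 and 2.34 with at least 1000 UMIs, 2.48 and 2.36 at resolution 2, 2.47 and 2.36 with family genes left out of clustering, 2.36 and 1.93 with unnamed epithelial clusters counted, 1.56 and 2.15 with each library clustered on its own, and in Trp53-intact mice 2.79 in luminal progenitor-like cells and 3.35 with each cell weighted equally. For Car9 they are 1.19 and 2.54 with a pseudocount of 1 CPM, 1.37 and 1.57 with each cell weighted equally, and 0.56 with unnamed clusters counted in Trp53-intact mice. When libraries were clustered alone, the epithelial-like cells of Trp53-intact ADT were 712 with a median of 1059 UMIs, and the Car2 ratio turned to -0.84. Genes past 1.5-fold with ADT rose from 29% and 27.1% to 45.3% and 44.9% with a minimum of 1 UMI. Between genotypes, small ratios turned sign. Without ADT they became 0.10 for Car12, 0.38 for Car2 and 0.14 for Car8 with each cell weighted equally. With ADT, Car13 became -0.02 with cells weighted equally, Car12 became 0.49 with libraries clustered alone, and Car2 became -0.17 in luminal progenitor-like cells, -0.19 with unnamed clusters counted and -0.19 in luminal progenitor-like cells of at least 10000 UMIs. Car2 with ADT was 1.57 between genotypes with libraries clustered alone. Over the same settings the ADT ratios of Car8 ran from 0.48 to 1.55 and 1.42 to 1.86, and those of Car13 from 0.46 to 0.98 and 1.04 to 1.74. The cause of these shifts was not tested. No paired analysis was possible because each group is 1 library. Depth limits Car4 most, with 7 to 27 UMIs per library in endothelial-like cells.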

Other observations

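Of the 9 other genes of the carbonic anhydrase family in the matrix, 8 had at least 20 UMIs in the kept cells, and Car5a had 19. Car5b, a mitochondrial form, stood in epithelial-like cells at 7.05 CPM (95% counting interval 6.09 to 8.12) in the Trp53-intact library, 1.74 (1.12 to 2.56) in Trp53-intact ADT and 12.7 (11 to 14.5) in Trp53-deleted. It was thus lower with ADT in Trp53-intact mice, where the 5 epithelial members were higher. In Trp53-deleted ADT it did not reach 20 UMIs in these cells. Of its 216 UMIs in Trp53-deleted, 83 lay in luminal-like cells, which numbered 200 there and 5 in Trp53-deleted ADT. Car5b was also at 26.4 and 26.7 CPM in cluster 26 of the 2 ADT libraries. Car1, a cytosolic form of red cells and colon, had 973 of its 1008 UMIs in cluster 28 of the Trp53-intact library, the cluster led by intestinal genes, and 923 of its UMIs were in 1 cell. Car6, the secreted form, had 191 of 259 UMIs in unnamed cluster 16. Car11, an inactive relative, was at 6.35, 5.66, 8.14 and 6.47 CPM in fibroblast-like cells. Car7 was at 6.12 CPM in endothelial-like cells of Trp53-deleted ADT and 2.37 CPM in macrophage-like cells of Trp53-intact, and Car10 at 0.918 CPM in cluster 16. The highest levels of these 3 genes rested on fewer UMIs, all in the Trp53-intact library. They were 11.9 CPM for Car7 in endothelial-like cells (18 UMIs), and 24.7 for Car10 (17 UMIs) and 20.4 for Car11 (14 UMIs) in Schwann-like cells. Of the receptor phosphatases with a carbonic anhydrase-like domain, Ptprg reached its highest level in endothelial-like cells (181.1, 198.7, 330.4 and 172 CPM). Most of its UMIs, 1961 of 6398, lay in fibroblast-like cells, at 39.7, 46.4, 61.8 and 39.1 CPM. Ptprz1 was at 151.1 and 140.7 CPM in Schwann-like cells of the Trp53-intact libraries without and with ADT.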
